A study of Homo sapiens with 12 samples.

Results

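The 9 genes described here belong to the route by which cells make, break down and sense prostaglandins: PLA2G4A, PTGS1, PTGS2, PTGES, PTGES2, PTGR1, HPGD, PTGER2 and PTGER4. They were taken by gene name from the 58735 genes of the deposited table, and all 9 were found. They were chosen on FPKM levels and geniposide changes already seen in these same 12 libraries. Their values are therefore a description, and each adjusted p below says where a gene stands in the fit over all genes and supports nothing further.

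RNA was sequenced from 12 samples labelled as the human liver tumour lines Huh7 (from a hepatocellular carcinoma) and HepG2 (from a hepatoblastoma). Cells of each line were collected at 48 h, either untreated or exposed to geniposide, which is a plant iridoid glycoside found in gardenia; this makes 4 groups of 3 samples, and no dose or vehicle is in the labels. The libraries held 15056655 to 17211659 fragments. By its title, the study asked about geniposide, DUOX1 and ferroptosis, a cell death driven by oxidised lipids, in hepatocellular carcinoma. No label says that samples of a group were separate cultures, so the p-values measure a spread that may be technical only.

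Markers of the labelled cell type were nearly absent. None of 10 hepatocyte markers reached 1 FPKM (fragment counts corrected for gene length and for the submitters' own library size) in any group. Their summed level was 0.198 to 0.563 FPKM, and APOB had 0 fragments in all 12 libraries. Albumin (ALB) and transthyretin (TTR) had 0 fragments in the 6 HepG2-labelled libraries. The library labelled Huh7 geniposide replicate 3 stood apart from its group: without it, the genes called higher and lower in Huh7 went from 2545 and 2812 to 3503 and 3651. The names Huh7 and HepG2 below mean the libraries so labelled.

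Prostaglandins are made from arachidonic acid, which cytosolic phospholipase A2 (PLA2G4A) releases from membrane lipids. The cyclooxygenases PTGS1 (COX-1) and PTGS2 (COX-2) turn it into prostaglandin H2, and synthases such as PTGES and PTGES2 turn that into prostaglandin E2. HPGD and PTGR1 inactivate prostaglandins, while PTGER2 and PTGER4 are the E2 receptors EP2 and EP4, which raise cyclic AMP. PTGS1 is known as the constitutive cyclooxygenase and PTGS2 as the inducible one, whose promoter answers to NF-kB, C/EBP and cyclic AMP signalling and whose mRNA is short-lived.

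The promoters of the 3 genes whose levels moved most are shown because PTGS1 and PTGS2 moved opposite to PTGES. Each is the 250 bases before the start site in RefSeq, build GRCh38.p14, read 5′ to 3′ on the strand of the gene. They lie at chr9:122370283-122370532 on the plus strand for PTGS1, at chr1:186680424-186680673 on the minus strand for PTGS2 and at chr9:129753043-129753292 on the minus strand for PTGES. Capitals mark matches on either strand to 5 motifs. The TATA box was searched as TATAAA. The core of a cyclic AMP response element was searched as TGACG. The C/EBP site was searched as TTNCGCAA and the GC box as GGGCGG. The NF-kB site was searched as its outer base triplets with any 4 bases between them.
PTGS1: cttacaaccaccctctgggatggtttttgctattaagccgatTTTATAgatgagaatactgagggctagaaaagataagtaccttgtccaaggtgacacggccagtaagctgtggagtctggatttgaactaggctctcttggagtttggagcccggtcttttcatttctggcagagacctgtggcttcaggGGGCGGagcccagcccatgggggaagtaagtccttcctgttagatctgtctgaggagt
PTGS2: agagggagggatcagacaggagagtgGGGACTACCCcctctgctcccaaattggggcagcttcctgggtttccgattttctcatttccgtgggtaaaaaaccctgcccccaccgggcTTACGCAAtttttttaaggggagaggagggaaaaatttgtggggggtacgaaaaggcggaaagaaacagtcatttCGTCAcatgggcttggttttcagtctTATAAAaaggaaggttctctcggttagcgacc
PTGES: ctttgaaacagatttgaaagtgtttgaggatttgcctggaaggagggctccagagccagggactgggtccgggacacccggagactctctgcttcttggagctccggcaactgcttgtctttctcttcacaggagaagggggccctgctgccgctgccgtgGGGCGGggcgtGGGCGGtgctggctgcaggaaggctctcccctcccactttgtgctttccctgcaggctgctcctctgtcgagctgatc
The PTGS2 window held an NF-kB match 224 to 215 bases before the start, a C/EBP match at 133 to 126, a cyclic AMP element core on the opposite strand at 58 to 54 and a TATA match at 32 to 27. The PTGS1 window held a GC box at 58 to 53 and a TATA match on the opposite strand at 208 to 203, and the PTGES window held GC boxes at 89 to 84 and at 78 to 73. Of the 35116 promoter windows of this length, 16.1% held the NF-kB letters, 0.752% the C/EBP letters, 21.2% the cyclic AMP core, 10.7% the TATA letters and 42.6% the GC box. Other motifs were searched too. The full cyclic AMP response element (TGACGTCA), which contains the core above, and the E-box (CACGTG) matched none of the 3 windows. The AP-1 site (TGANTCA) and the C/EBP-ATF4 composite (TGATGNAA) matched none of them either. A heat shock element core (GAANNTTC, in 5.78% of windows) lay in PTGS2 at 23 to 16, and an NRF2 element core (TGACNNNGC, in 10.9% of windows) lay in PTGS1 at 157 to 149. A match is a description of letters, not a bound site. All 9 members matched a promoter window, with GC contents of 49.6% for PTGS1, 50.4% for PTGS2 and 61.2% for PTGES against a median of 58.0% over all windows.

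The members lay on 5 chromosomes in build hg38, with the positions as the deposited table gives them. The cyclooxygenase genes are PTGS1 (ENSG00000095303) at chr9:122370530-122395703 on the plus strand, whose span holds the sense-intronic transcript AL162424.1, and PTGS2 (ENSG00000073756) at chr1:186671791-186680427 on the minus strand. The synthases are PTGES (ENSG00000148344) at chr9:129738331-129753047 and PTGES2 (ENSG00000148334) at chr9:128120693-128128462, both on the minus strand. PLA2G4A (ENSG00000116711, chr1:186828953-186988981, plus strand) starts 148.5 kb from PTGS2, and the table lists 1 gene between them, the long non-coding RNA PACERR. PTGR1 (ENSG00000106853) is at chr9:111549722-111599893 on the minus strand, where its span overlaps ZNF483 and AL135787.1 on the other strand. HPGD (ENSG00000164120) is at chr4:174490177-174523154 on the minus strand, PTGER2 (ENSG00000125384) at chr14:52314305-52328606 on the plus strand, and PTGER4 (ENSG00000171522) at chr5:40679498-40693735 on the plus strand, where it overlaps TTC33 on the other strand. The library protocol does not mark strand, so fragments in those overlaps cannot be told apart.

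In HepG2, geniposide went with higher cyclooxygenase transcripts and lower E2 synthase transcripts. PTGS1 rose 3.605-fold and PTGS2 rose 5.393-fold, while PTGES fell 2.459-fold and PTGES2 fell 1.833-fold. In Huh7, where both cyclooxygenases were near the detection floor, PTGER2 fell 2.676-fold and PTGES2 fell by 0.19 on the log2 scale. Of the 9 members, 4 passed the test in HepG2 (2 higher, 2 lower), beside 42.5% of all 15518 genes tested (21.0% higher and 21.5% lower), so their share of 44.4% was near the background. In Huh7, 2 of 9 passed (0 higher, 2 lower; 22.2%) beside 34.5% of all genes (16.4% higher and 18.1% lower). The median member change was -0.07 in HepG2 and -0.02 in Huh7, beside medians of 0.00 over all genes in both lines. The test was limma on log2(FPKM + 1) with Benjamini-Hochberg adjustment over all tested genes, a scale that understates changes of genes near or below 1 FPKM. In bulk samples, fewer cells of a type and less RNA per cell cannot be told apart.

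**Figure D1:**
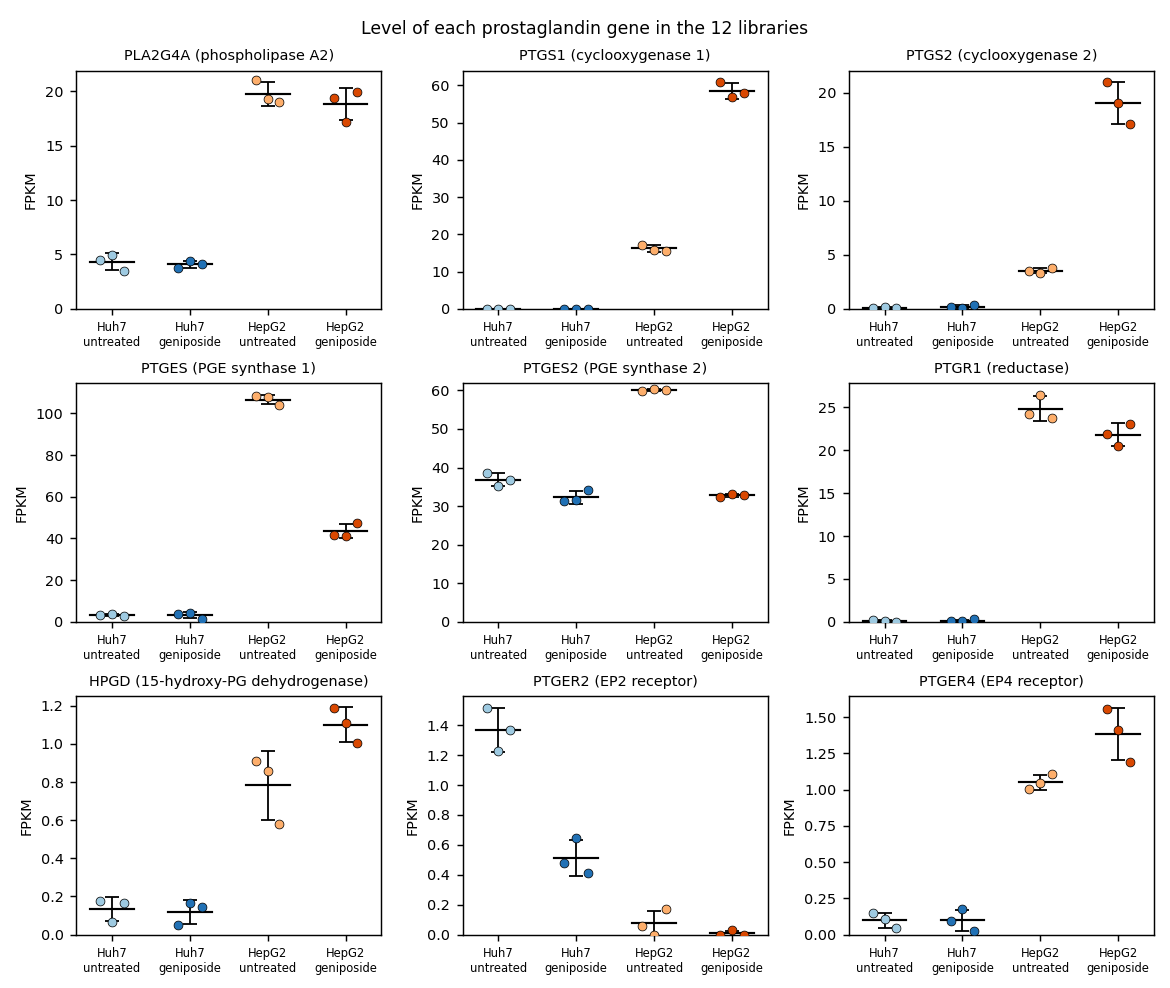
FPKM (vertical axes, each from 0) of the 9 genes in the 12 libraries; points are libraries, long bars are group means and error bars are the SD of 3 samples. PTGS1 and PTGS2 are highest in all 3 HepG2 geniposide libraries, PTGES is highest in untreated HepG2, and PTGER2 is highest in untreated Huh7.

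The substrate-releasing enzyme did not pass the test in either line. PLA2G4A, which releases arachidonic acid, was at 21.0, 19.3 and 19.0 FPKM in untreated HepG2 and at 19.4, 17.1 and 19.98 with geniposide. In Huh7 it was at 4.52, 4.98 and 3.49 untreated and 3.77, 4.36 and 4.12 with geniposide. The groups overlapped in both lines. The difference was -0.07 ± 0.10 (SE) on the log2 scale in HepG2 (95% interval -0.29 to 0.16, limma adjusted p = 0.6493) and -0.06 ± 0.10 in Huh7 (interval -0.28 to 0.17, adjusted p = 0.7039).

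PTGS1, the constitutive cyclooxygenase, was at 17.2, 15.8 and 15.6 FPKM in untreated HepG2 and at 60.9, 56.8 and 57.9 with geniposide. Every treated library was above every untreated one. The means were 16.2 ± 0.873 and 58.5 ± 2.13 FPKM (SD, n = 3), a difference of 1.79 ± 0.05 on the log2 scale (95% interval 1.67 to 1.91, limma adjusted p = 2.014e-08). It ranked 21 from the top of 15518 genes by the size of its rise. In Huh7 it rested on 2 to 7 fragments a library, at 0.0399, 0.0718 and 0.0209 FPKM untreated and 0.0185, 0.0197 and 0.0557 with geniposide, and the groups overlapped (adjusted p = 0.8465).

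PTGS2, the inducible cyclooxygenase, was at 3.47, 3.35 and 3.77 FPKM in untreated HepG2 and at 21.0, 19.0 and 17.1 with geniposide, from 268 to 286 fragments and 1409 to 1618 fragments a library. The groups did not overlap. The means were 3.53 ± 0.216 and 19.0 ± 1.96 FPKM (SD, n = 3), a difference of 2.14 ± 0.09 on the log2 scale (interval 1.94 to 2.34, limma adjusted p = 1.006e-07), which ranked 4 from the top of all genes tested. In Huh7 it was at 0.0876, 0.135 and 0.0802 FPKM untreated and 0.183, 0.0758 and 0.316 with geniposide, from 7 to 31 fragments a library. The Huh7 groups overlapped, and the difference of 0.11 ± 0.09 did not pass (adjusted p = 0.3954).

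PTGS1 was the more abundant cyclooxygenase per length in HepG2, with and without geniposide. It made up 82.1% of the summed cyclooxygenase FPKM untreated and 75.5% with geniposide (3 samples each). The lowest PTGS1 value with geniposide, 56.8 FPKM, was above the highest PTGS2 value, 21.0 FPKM.

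PACERR, a long non-coding RNA that starts beside PTGS2 on the other strand and is known to act on its transcription, was looked at after its values were seen. It lies at chr1:186680622-186681446 on the plus strand. It was at 1.12 ± 0.303 FPKM in untreated HepG2 and at 4.205 ± 0.616 with geniposide (SD, n = 3), from 11 to 18 and 43 to 56 fragments a library. The groups did not overlap, and the rise was 1.30 ± 0.15 on the log2 scale (limma adjusted p = 5.815e-05). Untreated HepG2 libraries were at 1.47, 0.958 and 0.926 FPKM. PACERR thus entered the fit only through treated HepG2, where it is high, so its rise is a description only. The antisense-named RNA next to PTGES2, PTGES2-AS1, was at 0.500 and 0.502 FPKM (adjusted p = 1).

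PTGES, the microsomal E2 synthase usually described as coupled to PTGS2, went the other way in HepG2. It was at 108, 108 and 104 FPKM untreated and at 41.7, 41.1 and 47.3 with geniposide. The groups did not overlap, with means of 106.6 ± 2.35 and 43.4 ± 3.43 FPKM (SD, n = 3) and a difference of -1.28 ± 0.22 on the log2 scale (interval -1.76 to -0.80, limma adjusted p = 0.0007327). In Huh7 it was at 3.35, 3.54 and 2.93 FPKM untreated and at 3.76, 4.21 and 1.504 with geniposide. The last of these libraries was below the untreated ones and the other two above them. The Huh7 difference of -0.11 ± 0.22 did not pass (adjusted p = 0.7532), and without that library it was 0.22 and passed (adjusted p = 0.03454).

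PTGES2, the second membrane-associated E2 synthase, was at 59.8, 60.3 and 60.1 FPKM in untreated HepG2 and at 32.4, 33.1 and 32.8 with geniposide. The groups were far apart for their spread, 60.1 ± 0.240 against 32.8 ± 0.346 FPKM (SD, n = 3), and the difference was -0.85 ± 0.05 on the log2 scale (limma adjusted p = 6.308e-07). In Huh7 it was at 38.5, 35.3 and 36.7 FPKM untreated and at 31.2, 31.5 and 34.3 with geniposide, with no overlap. That difference was -0.19 ± 0.05 (adjusted p = 0.01323). It was -0.11 (adjusted p = 0.1067) after scaling every library to TPM and -0.15 (adjusted p = 0.05942) without Huh7 control replicate 1, so the Huh7 call rested on the scaling and on that library.

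Summed over the pairs, which was done after the values were seen and was not tested, PTGS1 and PTGS2 went from 19.8 ± 0.820 to 77.6 ± 3.78 FPKM in HepG2, and PTGES and PTGES2 from 166.7 ± 2.32 to 76.1 ± 3.46 (SD, n = 3). The synthase sum was 8.12 to 8.75 times the cyclooxygenase sum in the untreated libraries and 0.905 to 1.07 times with geniposide. With PTGES3, the cytosolic synthase, added, the HepG2 synthase sum was 349.6 ± 4.71 FPKM untreated and 208.6 ± 13.1 with geniposide, and the ratio to the cyclooxygenase sum went from 16.9 to 18.4 down to 2.41 to 2.98. Without PTGES3, in Huh7 the synthase sum went from 40.1 to 35.5 FPKM, with cyclooxygenase sums of 0.145 and 0.223 FPKM. PTGES made up 64.0% of the synthase sum in untreated HepG2 and 56.9% with geniposide.

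**Figure D2:**
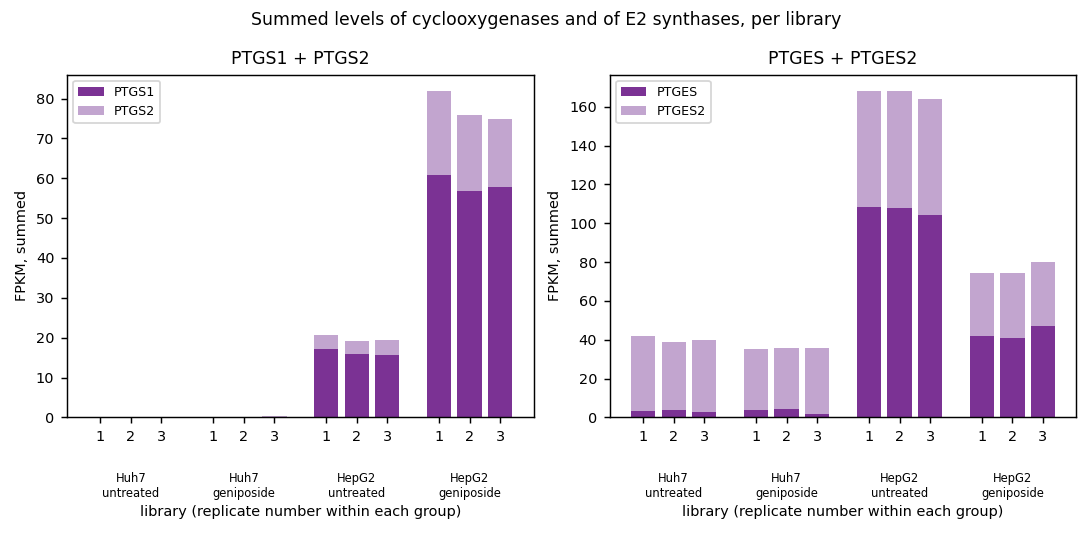
Summed FPKM (vertical axes, from 0) of PTGS1 and PTGS2, left, and of PTGES and PTGES2, right, in each library, with the share of each gene as a shade. In HepG2 the left bars go from 19.2 to 20.7 up to 75.0 to 81.9 FPKM with geniposide, while the right bars go from 164.0 to 168.1 down to 74.1 to 80.1 FPKM.

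Markers of other cell types moved in the same HepG2 libraries. The summed level of 4 cholangiocyte markers (KRT7, KRT19, EPCAM and SOX9) was 275.4 to 287.5 FPKM untreated and 72.4 to 75.9 with geniposide, and that of 6 fibroblast and stellate cell markers was 37.8 to 39.7 and 46.3 to 48.9, with 5 of 6 at 1 FPKM or more. None of the 4 cholangiocyte markers was at 0 fragments in HepG2. By group mean, 2 of 4 were at 1 FPKM or more untreated (KRT7 and KRT19) and 1 of 4 with geniposide (KRT7). The HepG2 sum is therefore mainly a keratin level, with EPCAM and SOX9 below 1 FPKM. In Huh7 the cholangiocyte sum was 3.42 to 4.27 and 2.38 to 3.92 FPKM, with only SOX9 at 1 FPKM or more and KRT7 at 0 fragments. The Huh7 fibroblast sum was 4.98 to 5.39 and 7.09 to 9.48 FPKM. No leukocyte marker of 6 and no endothelial marker of 5 reached 1 FPKM in any group. The part of these markers in the results on PTGS1, PTGS2, PTGES and PTGES2 was not tested.

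The enzymes of breakdown did not pass the test in either line in the fit over all 12 libraries. PTGR1, which reduces 15-oxo prostaglandins and oxidises leukotriene B4, was at 24.3, 26.5 and 23.7 FPKM in untreated HepG2 and at 21.9, 20.4 and 23.1 with geniposide. The groups did not overlap, yet the difference of -0.18 ± 0.09 did not pass (interval -0.38 to 0.02, limma adjusted p = 0.1355). It passed without Huh7 geniposide replicate 3 (adjusted p = 0.04151) and with each line fitted alone (adjusted p = 0.04509). HPGD, which oxidises the 15-hydroxyl group of prostaglandins, was at 0.912, 0.858 and 0.578 FPKM untreated and at 1.19, 1.11 and 1.01 with geniposide, again without overlap (0.24 ± 0.10, interval 0.02 to 0.46, adjusted p = 0.07501). The HPGD difference was 0.16 without HepG2 control replicate 3, 0.12 with quantile normalization, 0.44 with TPM, 0.46 with a pseudocount of 0.1 FPKM and 0.52 with voom, and it passed under none of the alternatives run. HPGD entered the fit only because its 3 treated HepG2 libraries were at 1 FPKM or more. In Huh7 PTGR1 rested on 1 to 18 fragments and HPGD on 5 to 17 fragments a library, and the groups overlapped for both.

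The receptors differed by line. PTGER2 (EP2) was at 1.52, 1.23 and 1.37 FPKM in untreated Huh7 and at 0.477, 0.646 and 0.413 with geniposide, from 51 to 65 and 19 to 28 fragments a library. The groups did not overlap, with means of 1.37 ± 0.146 and 0.512 ± 0.120 FPKM (SD, n = 3), and it fell by 0.65 on the log2 scale (SE 0.10, interval -0.87 to -0.43, limma adjusted p = 0.0006163). PTGER2 entered the fit only through untreated Huh7. In HepG2 it had 2, 0 and 6 fragments untreated and 0, 1 and 0 with geniposide, so a change was not detectable at this depth. PTGER4 (EP4) had the opposite distribution, with 1.001, 1.05 and 1.10 FPKM in untreated HepG2 and 1.55, 1.41 and 1.19 with geniposide, and 2 to 12 fragments a library in Huh7. Its HepG2 groups did not overlap, but the difference of 0.22 ± 0.09 did not pass (interval 0.02 to 0.41, adjusted p = 0.07844), and without HepG2 geniposide replicate 3 it was 0.27 and passed (adjusted p = 0.04603), as it did without Huh7 geniposide replicate 3 (adjusted p = 0.04045).

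**Figure D3:**
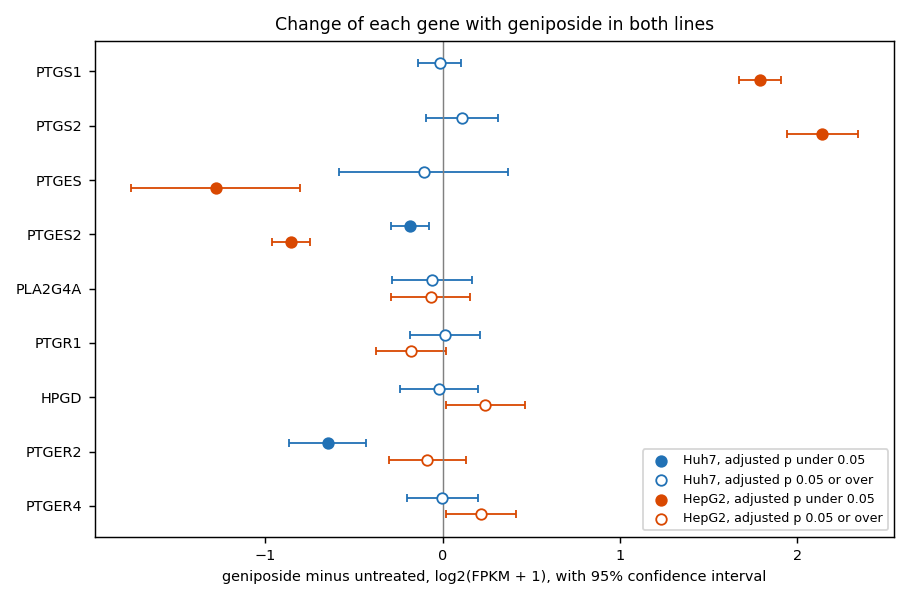
Difference between geniposide and untreated libraries on the log2(FPKM + 1) scale (horizontal axis), with 95% intervals, for each gene in Huh7 (blue) and HepG2 (orange); filled points passed an adjusted p of 0.05. PTGS1 at 1.79 and PTGS2 at 2.14 lie far to the right in HepG2 and near 0 in Huh7, PTGES and PTGES2 lie to the left in HepG2, and PTGER2 at -0.65 lies to the left in Huh7, while its HepG2 interval spans 0.

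The difference between the 2 lines' responses was tested for all genes, and 5 of 9 members passed (3 higher and 2 lower in HepG2, 55.6%) beside 27.8% of all genes. It was 1.81 ± 0.08 for PTGS1 (limma adjusted p = 6.726e-07), 2.03 ± 0.13 for PTGS2 (5.575e-06), -1.17 ± 0.30 for PTGES (0.01632), -0.67 ± 0.07 for PTGES2 (0.0001014) and 0.56 ± 0.14 for PTGER2 (0.01293). PTGS1 and PTGS2 rested on 2 to 7 and 7 to 31 fragments a library in Huh7, and PTGER2 on 0 to 6 in HepG2. On log2(FPKM + 1) a change at such levels stays near 0, so for these genes the difference mostly repeats the other line's change. For PTGER2 the difference turned to -0.11 on a ratio scale (voom on the recovered fragments, adjusted p = 0.9577). PTGES (adjusted p = 0.07105) and PTGER2 (adjusted p = 0.3055) did not pass with a pseudocount of 0.1 FPKM, nor PTGS2 on the ratio scale (1.64, adjusted p = 0.05597). For PLA2G4A the difference was -0.01 (interval -0.33 to 0.31).

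The untreated lines differed at all 9 genes, 8 of them higher in HepG2 and 1 lower, beside 71.8% of all genes tested (36.1% higher and 35.8% lower). PTGS1, PTGS2, PTGR1, PTGER4 and HPGD reached 1 FPKM only in HepG2 libraries, and PTGER2 only in untreated Huh7. Those genes were in the fit only through the line where they are high, so the count supports nothing further. Line and culture cannot be told apart here. The fitted differences of HepG2 minus Huh7 on the log2 scale were 4.66 for PTGES, 4.56 for PTGR1, 4.04 for PTGS1, 2.04 for PTGS2, 1.97 for PLA2G4A, 0.90 for PTGER4, 0.69 for PTGES2 and 0.65 for HPGD, and -1.14 for PTGER2. In mean FPKM, PTGES was 3.27 in Huh7 and 106.6 in HepG2, PTGR1 was 0.0987 and 24.8, and PTGS1 was 0.0442 and 16.2. PTGES2 was at 36.9 and 60.1. For genes near the floor in one line these values depend on the scale: in the voom fit the difference was 8.22 for PTGS1, 7.97 for PTGR1, 4.80 for PTGS2, 3.15 for PTGER4, 2.30 for HPGD and -4.95 for PTGER2, against 4.74 for PTGES, so the order of the genes changed while every direction and call held. Scaling to TPM moved the median of all genes by -0.27 in this comparison, and PTGES2 was then at 0.42.

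Ordered by mean FPKM, the untreated HepG2 levels were PTGES, PTGES2, PTGR1, PLA2G4A, PTGS1, PTGS2, PTGER4, HPGD and PTGER2. All neighbours in that order had ranges that did not overlap. In untreated Huh7 the order began with PTGES2, PLA2G4A, PTGES and PTGER2, of which PLA2G4A and PTGES had overlapping ranges (3.49 to 4.98 and 2.93 to 3.54 FPKM). The other 5 genes were below 0.2 FPKM in every untreated Huh7 library.

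The 3′ untranslated regions of the transcripts in GENCODE 29 were searched for ATTTA, the core of AU-rich elements that mark short-lived mRNAs. PTGS2 held 22 in 2562 bases, a number reached by 1.65% of 19551 genes, and 8.59 per kb, reached by 2.4%. PTGER4 held 9, HPGD and PTGER2 held 5 each, PLA2G4A held 4, PTGR1 and PTGS1 held 3 each, PTGES held 1 and PTGES2 held 0, beside a median of 1 over all genes. Per kb, PTGR1 was denser than PTGS2, at 19.5 in a region of only 154 bases (reached by 0.297% of genes). PLA2G4A was at 8.46 per kb (2.48%) and PTGER4 at 6.63 (4.84%). Lower densities were 4.34 for PTGER2, 2.81 for HPGD, 0.950 for PTGS1, 0.781 for PTGES and 0 for PTGES2. The decay of these mRNAs was not measured.

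The other genes of the route were taken from lists chosen with earlier results of these data known, and genes were named by smallest p. Their called shares stand beside 34.5% of all genes in Huh7 and 42.5% in HepG2. Of 16 other phospholipases A2 and their activators, 6 passed the filter; 2 rose and 1 fell in Huh7 (50% called) and 3 rose in HepG2 (50%). PLA2G6 (calcium-independent phospholipase A2) rose from 2.84 to 4.94 FPKM in Huh7 and from 1.36 to 2.45 in HepG2, and PNPLA8 from 3.65 to 6.84 and from 6.85 to 8.27. PLAA, a phospholipase activator, fell from 13.3 to 11.0 in Huh7. PLA2G3, below the filter, fell from 0.732 to 0.159 FPKM in HepG2.

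Of 10 other prostanoid synthases and reductases, 7 passed the filter, with 0 higher and 2 lower in Huh7 (28.6% called) and 2 higher and 4 lower in HepG2 (85.7%, median -0.40). PTGES3, the cytosolic E2 synthase that is also the co-chaperone p23, fell from 168.7 to 137.7 FPKM in Huh7 and from 182.9 to 132.5 in HepG2 (-0.47 ± 0.06, limma adjusted p = 0.0001677), so all 3 E2 synthases were lower with geniposide in HepG2. CBR1, a carbonyl reductase of prostaglandins, fell from 14.6 to 11.6 and from 26.3 to 19.8. AKR1B1, which makes prostaglandin F2-alpha, rose from 218.1 to 368.8 FPKM in HepG2 and did not pass in Huh7 (58.6 and 61.6). AKR1C3, also a prostaglandin F synthase, rose from 20.3 to 32.3 in HepG2 and had 0 FPKM in Huh7; it shares near-identical copies with its family, so its count is uncertain. The difference between the lines passed for AKR1B1 (0.68 ± 0.10, adjusted p = 0.00088) and not for PTGES3 (-0.17 ± 0.09, adjusted p = 0.172).

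Of 9 other breakdown and transport genes, 5 passed the filter, with 1 higher and 2 lower in Huh7 (60% called) and 1 higher and 1 lower in HepG2 (40%). ABCC4, an exporter of prostaglandins and cyclic nucleotides, went opposite ways: it fell from 7.58 to 6.03 FPKM in Huh7 and rose from 7.62 to 12.6 in HepG2 (difference 0.96 ± 0.12, limma adjusted p = 0.0003798). SLCO2A1, the prostaglandin uptake transporter, rose in Huh7 from 0.239 to 0.708 FPKM while below the filter. ZADH2, a 15-oxo prostaglandin reductase, fell from 6.50 to 5.29 FPKM in Huh7. CYP4F2, an omega-hydroxylase, was at 0 in untreated HepG2 and 0.0641 FPKM with geniposide, too low to read.

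Of 7 other prostanoid receptors, 2 passed the filter, and in HepG2 PTGFR, the F2-alpha receptor, rose from 0.567 to 1.47 FPKM while TBXA2R, the thromboxane receptor, fell from 14.7 to 9.41. Neither passed in Huh7. PTGFR entered the fit only through treated HepG2, where it is high, so its rise is a description only. In the lipoxygenase list, 8 of 16 passed the filter, with 3 higher in Huh7 (37.5% called) and 1 in HepG2 (12.5%): GGT1 (1.43 to 2.81 FPKM) and ALOXE3 (0.616 to 1.56) in Huh7 and ALOX12B (1.39 to 2.70) in HepG2. ALOXE3 entered the fit only through treated Huh7, where it is high. Below the filter, GGT5, a leukotriene C4 hydrolase, fell from 1.12 to 0.170 FPKM in HepG2, and ALOX5AP, the helper protein of 5-lipoxygenase, fell from 0.291 to 0.0904; ALOX5AP is named outside the rule, after its values were seen. In the epoxygenase list, 3 of 7 passed the filter, 1 rose in each line (33.3% called), and EPHX1, an epoxide hydrolase, rose from 35.0 to 72.5 FPKM in HepG2 while EPHX2 rose from 1.78 to 3.81 in Huh7.

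Factors known to bind the PTGS2 promoter were led by different genes in the 2 lines. Of 15 listed, 14 passed the filter; 5 rose and 3 fell in Huh7 (57.1% called), and 8 rose and 0 fell in HepG2 (57.1%, median 0.28, beside 0.00 over all genes). NFATC2, below the filter and named after its values were seen, fell from 0.460 to 0.138 FPKM in HepG2 (limma adjusted p = 0.001676). In Huh7, ATF3, a stress-induced repressor and activator, rose from 10.6 ± 1.03 to 121.1 ± 64.6 FPKM, JUN from 112.6 to 450.0 and CEBPB from 19.8 to 56.8. In HepG2, EGR1, an immediate early factor, rose from 1.64 to 6.12 and CEBPB from 115.7 to 142.7, while ATF3 (3.63 and 4.02) and JUN (17.6 and 15.8) did not pass. The difference between lines passed for ATF3, JUN, CEBPB and EGR1, with adjusted p of 0.0002834, 0.0002962, 0.0001769 and 8.698e-05.

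Factors known to control PTGS2 mRNA stability were all 11 past the filter, with 0 higher and 4 lower in Huh7 (36.4% called) and 4 higher and 4 lower in HepG2 (72.7%). RBM3, a cold-inducible RNA-binding protein, fell from 49.4 to 20.7 FPKM in Huh7 and from 42.6 to 17.0 in HepG2, and HNRNPD (AUF1), a decay factor, fell from 57.0 to 26.9 and from 37.1 to 23.2. ZFP36L1, a decay factor of the tristetraprolin family, rose from 21.5 to 38.9 FPKM in HepG2, and AUH rose from 5.44 to 7.97. Neither passed in Huh7.

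Cyclic AMP response genes lie downstream of EP2 and EP4 and of many other signals. Of 12 listed, 8 passed the filter. In Huh7, 2 rose (25% called), and in HepG2 5 rose and 0 fell (62.5%, median 0.60). PPARGC1A, counted among the rises and named after its values were seen, entered only through treated HepG2 (0.830 FPKM untreated, 1.69 with geniposide). A gene that starts below 1 FPKM can enter by rising and not by falling, so the filter favours rises in this count. PER1, a circadian repressor, rose from 11.4 to 39.6 FPKM in HepG2, NR4A2 from 2.24 to 5.42 and SIK1 from 31.7 to 50.4. Below the filter, PCK1 rose from 0.126 to 0.830 FPKM, and PDE4B, a cyclic AMP phosphodiesterase named after its values were seen, fell from 0.399 to 0.0858 (limma adjusted p = 0.0004526). PER1, NR4A2, SIK1 and PCK1 did not pass in Huh7, and the difference between lines passed for each of them.

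**Figure D4:**
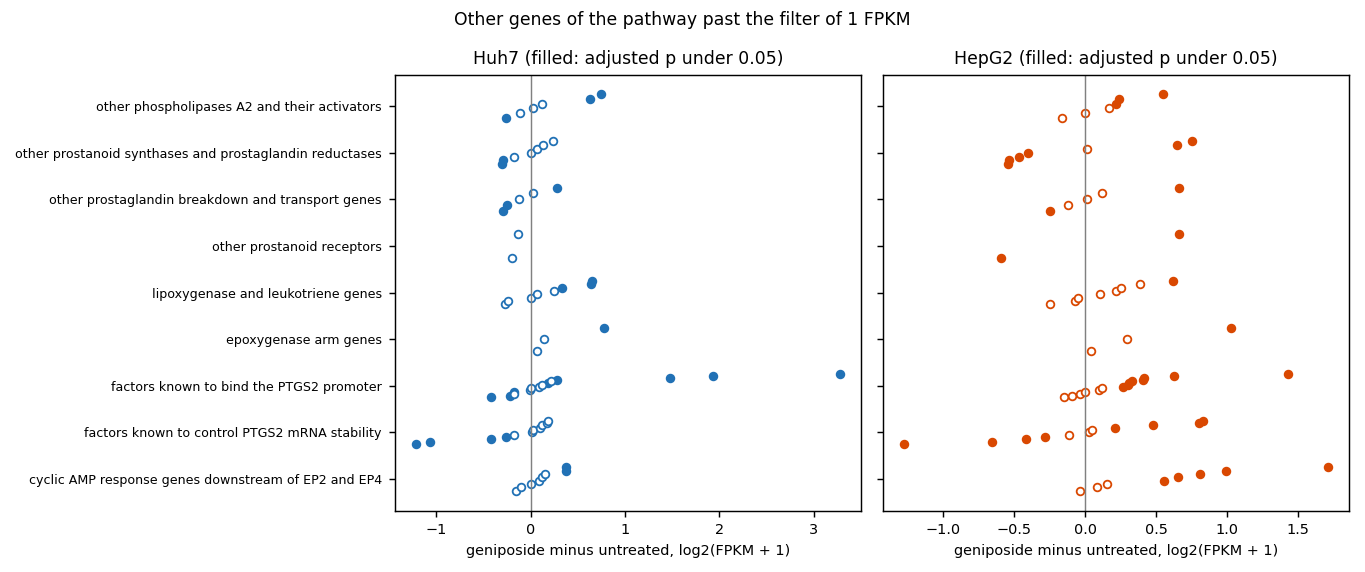
Difference between geniposide and untreated libraries on the log2(FPKM + 1) scale (horizontal axes) for each gene past the filter in 9 lists of the route, in Huh7, left, and HepG2, right; filled points passed an adjusted p of 0.05. All 8 filled points of the PTGS2 promoter factors and all 5 of the cyclic AMP genes lie to the right in HepG2, while the mRNA stability factors lie on both sides. Genes below the filter are not drawn, among them NFATC2 and PDE4B, which fell in HepG2.

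The genes with profiles closest to a member were found by the root mean square difference of mean-centred log2(FPKM + 1) over the 12 libraries, among 12149 protein-coding genes. For PTGS2 they included CP (0.13), QSOX1 (0.28), AKR1C1 (0.30) and A2M (0.34). CP, which encodes ceruloplasmin, was at 0.0218 and 0.0222 FPKM in untreated and treated Huh7 and at 2.93 and 14.2 in HepG2. For PTGS1 they were TMPRSS3 (0.22) and IER3 (0.28), for PTGES ENG (0.24) and MT1E (0.31), and for PTGES2 PSMD13 (0.056) and HSD17B10 (0.065). For PLA2G4A they were NYAP2 and VASP (both 0.11), for PTGR1 SERPINB5 (0.11) and EPS8L2 (0.13), for HPGD ZFYVE27 (0.088) and FRK (0.089), for PTGER2 GTF2H5 (0.089) and RBM38 (0.11), and for PTGER4 MUC13 (0.060) and NUMA1 (0.065). The libraries of a group share line and treatment, so such likeness follows the 4 group means.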

How the data were processed

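Poly(A) RNA of 12 samples was sequenced. CASAVA, fastp and build hg38 are named, per the submitters' processing notes, while the read mapping was not given in the sources used here. FPKM values of 58735 genes were deposited by the authors in 12 columns, each matched to a sample by name, and 0 columns were left over. All gene identifiers were found in GENCODE 29. FPKM times gene length gave whole fragments within 0.05 for 100% of values. The library size behind each FPKM column differed from the summed fragments of that library. Its ratio to that sum was 1.09 to 1.10 in untreated Huh7 and 1.15 to 1.17 with geniposide. In HepG2 the ratio was 0.895 to 0.912 untreated and 0.909 to 0.914 with geniposide. How this library size was set was not given. In a gene of 1 kb, 3 fragments were worth 0.161 to 0.212 FPKM; such floors cover counting error only.

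A single model of 4 group means was fitted to log2(FPKM + 1) with limma 3.58.1 in R 4.3.3 (8 residual degrees of freedom, variance trend, two-sided tests, Benjamini-Hochberg adjustment at 0.05) over the 15518 genes with 1 FPKM or more in at least 3 of 12 samples. A listed gene below that filter was read from the fit without it. All 9 members passed, HPGD and PTGER2 through a single group each, and PTGS1, PTGS2, PTGR1 and PTGER4 through HepG2 libraries only. Libraries of a group all differed beyond sampling noise (chi-square over degrees of freedom 2.20 or more). This value was 43.4 and 44.9 for pairs with Huh7 geniposide replicate 3. It was 5.90 and 6.58 for pairs with HepG2 geniposide replicate 3, and at most 3.01 for all other pairs. The fit was tested on simulated data.

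The members and lists were chosen with earlier results of these data known. Named genes are the members, up to 4 called genes per list by smallest p, and the nearest profiles (5 for PTGS2, of which 1 is not reported here, and 2 for each other member); any other is said to be chosen after its values were seen. Alternatives were another pseudocount, filter, scaling, quantile normalization, each line alone, voom on recovered fragments, a replicate block, and leaving out each library.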

Additional observations from a re-analysis of the deposited data

Results flagged for a closer look

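The response to geniposide differed between the lines in the test of the difference itself (HepG2 minus Huh7, log2(FPKM + 1), limma, adjusted over 15518 genes) for 5 genes. The values were 1.807 for PTGS1 (adjusted p = 6.726e-07) and 2.032 for PTGS2 (5.575e-06), with each of the 3 treated HepG2 libraries above each untreated one. They were -1.174 for PTGES (0.01632) and -0.6697 for PTGES2 (0.0001014), with each treated HepG2 library below each untreated one. For PTGER2 the value was 0.5627 (0.01293), where each treated Huh7 library was below each untreated one. The PTGS2 difference did not pass with voom (1.64, adjusted p = 0.05597). The PTGES difference did not pass with a pseudocount of 0.1 FPKM (adjusted p = 0.07105) or with TPM (0.05225). The PTGER2 difference turned to -0.11 with voom (adjusted p = 0.9577) and did not pass with a pseudocount of 0.1 FPKM (0.3055) or with TPM (0.05891). These genes were chosen with such values known. In Huh7, PTGS1 had 2 to 7 and PTGS2 7 to 31 fragments a library, and PTGER2 had 0 to 6 in HepG2. A change at such levels stays near 0 on this scale. For PTGS1, PTGS2 and PTGER2 the difference therefore mostly repeats the other line's change.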

How the results depend on the processing

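The 26 member changes followed were those called, or with a mean of 1 FPKM or more in a compared group. Differences between lines were followed only when called. They were recomputed under 20 alternatives, 12 of which leave out 1 library, and of 506 values, 485 kept direction and side of the threshold. Another filter, each line alone, the replicate block, or leaving out a library outside the groups compared leaves the log2 difference as it is. Such values could change only in their adjusted p. In HepG2 the calls of PTGS1 (1.76 to 1.90), PTGS2 (2.02 to 2.44), PTGES (-1.34 to -1.14) and PTGES2 (-0.87 to -0.73) held under every alternative run. The members called in Huh7 went from 2 to 1 with TPM, with quantile normalization, with each line alone, with voom and with the replicate block, and from 1 (without Huh7 control replicate 1) to 3 (without Huh7 geniposide replicate 3) when 1 library was left out; PTGER2 stayed called throughout. The members called in the difference between lines went from 5 to 3 with a pseudocount of 0.1 FPKM, TPM or voom. The direction turned for PTGES in Huh7 without Huh7 geniposide replicate 3 (0.22; -0.31 without replicate 2), for PLA2G4A in Huh7, never called, with TPM (0.0062), voom (0.0037) and without Huh7 control replicate 2 (0.029; -0.18 without replicate 3), and for PTGER2 in the difference with voom (-0.11); the cause was not tested. The labels do not say whether replicate numbers pair the samples. Correlations of deviations were -0.061 to 0.020 for same-numbered libraries and -0.047 to 0.072 for differently numbered ones. With 3 libraries a group these values cannot decide it. With the replicate block, 1 member was called in Huh7 (PTGES2 adjusted p = 0.0513) and PTGER2 lost its call in the difference (adjusted p = 0.05669). Over all genes, fitting each line alone called 1518 higher and 1750 lower in Huh7 against 2545 and 2812. The share of calls that were higher was 47.5% in Huh7, 61.6% with TPM, 60.5% with voom and 38.8% with a filter of 5 FPKM; 50.2% between the untreated lines, 36.6% with TPM and with voom; and 50.9% in the difference, 40.4% with voom. Depth limits PTGS1, PTGS2, PTGR1, HPGD and PTGER4 in Huh7 and PTGER2 in HepG2, each at 31 fragments a library or fewer.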
